A study of Arabidopsis thaliana with 8 samples.

Results

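The age dependence of the submergence response was examined in shoots of Arabidopsis thaliana, as the interaction between age and treatment over all 8 of the 8 arrays in the series. The interaction is the response of adult shoots (submerged minus dark control) minus the response of juvenile shoots, so a negative value means that the adult change was the lower of the pair and a positive value that it was the higher. The samples were placed by their source labels in 4 groups of 2 arrays, although the titles of the arrays that those labels call submerged begin with "dark" and do not mention submergence, which their treatment labels give: juvenile (2 weeks old) and adult (3 weeks old) plants, each either submerged for 24 h or kept as dark controls in tanks without water. All plants grew on soil in a 12 h photoperiod, and treatment began as the light phase ended. Controls were kept in the dark, so that darkness was shared by control and submerged plants. The strain is not given in the labels, and nothing in them says whether the 2 samples of a group came from separate cultures of plants, so p-values measure only the spread between these samples, which may be technical. The values are log2 expression per locus, and every difference below is in log2 units unless a fold is named.

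Submergence cuts off gas exchange, so oxygen falls in plant cells, the gaseous hormone ethylene builds up, and photosynthesis and carbon supply are limited. Arabidopsis answers with fermentation genes driven by oxygen-sensing transcription factors, and impaired mitochondria send a separate signal to the nucleus, called mitochondrial retrograde signalling, that raises alternative oxidase and detoxification genes. Juvenile and adult are successive phases of shoot growth before flowering, and adult rosettes of many plants also differ from juvenile ones in resistance to pathogens.

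Each array held 27826 loci, with medians between 6.13 and 6.30, and the 2 arrays of a group correlated across loci with r between 0.990 (submerged juvenile) and 0.995 (juvenile controls). Loci are not independent replicates. The difference between replicates had an SD of 0.282 and 0.308 in juvenile and adult controls and of 0.374 and 0.358 in submerged juvenile and adult shoots, so the submerged arrays were the noisier. Leaf genes were high on every array (RBCS1A, the Rubisco small subunit, 12.58 to 12.84), apart from CAB2, an antenna gene with close relatives, at 2.92 to 4.40. Among 4 root genes, CASP1, SHV2 and EXPA7 lay between 2.45 and 5.67, whereas PYK10, a beta-glucosidase best known from roots, lay between 7.42 and 10.74. The mean of the root list was 5.45 and 5.60 in juvenile controls, 5.07 and 5.18 in submerged juvenile shoots, 5.23 and 5.33 in adult controls and 4.63 and 4.82 in submerged adult shoots. Its median interaction was -0.0076, and 1 of 4 genes (PYK10, -1.08) had an unadjusted p under 0.05, against 7.3% of all loci. Of 4 shoot meristem genes 0 had an unadjusted p under 0.05 for the interaction (median -0.22), and likewise 0 of 5 leaf (median -0.02) and 0 of 5 flower genes (median 0.05); among the last, PI (PISTILLATA) rose by 2.99 in juvenile and 3.14 in adult shoots. In such bulk samples, fewer cells of a type and less RNA per cell cannot be told apart.

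The question was which functions responded more to submergence at 1 age than at the other. Limma called 0 of 27826 loci for the interaction at an adjusted p under 0.05 (0%), and AT1G26390 had the smallest adjusted p, 0.143. Without adjustment, 2030 loci (7.3%) had p under 0.05, 894 positive (3.21%) and 1136 negative (4.08%), where 1391 would do so by chance. With each array centred on its median the split was 2278 positive and 549 negative, as centring moved every interaction up by 0.166. The median standard error of an interaction was 0.232, so with 2 arrays a group only large differences could be resolved. A fit that let the variance prior follow expression and resist outliers (intensity trend and robust prior) called 28 loci (0.101%), of which 22 were negative (0.0791%) and 6 positive (0.0216%). These 28 loci are used below as the best-resolved examples, with the adjusted p of that fit named as such, and gene lists are described by counts and medians.

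The single responses that the interaction compares were large. In juvenile shoots 4305 loci rose (15.5%) and 5220 fell (18.8%), and in adult shoots 4073 rose (14.6%) and 5273 fell (18.9%). After centring, 3663 rose and 7014 fell in juvenile shoots. The interaction was small beside these, with a median of 0.00 over all loci, 49.7% of loci negative and a median size of 0.188. Large interactions were mostly negative in the deposited values: 461 loci (1.66%) lay at -1 or below and 183 (0.658%) at 1 or above. These counts were not repeated after centring or quantile normalization. Among the 3441 loci called higher at both ages, 2136 (62.1%) had the larger rise in juvenile shoots, with a median interaction of -0.083. That median was 0.083 after each array was centred on its median and -0.067 after quantile normalization, so its sign depended on the scaling. Among the 4123 loci called lower at both ages, 2003 (48.6%) had the larger fall in juvenile shoots, and the median interaction was -0.0077 (0.158 after centring and 0.032 after quantile normalization, so its sign too depended on the scaling).

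**Figure D1:**
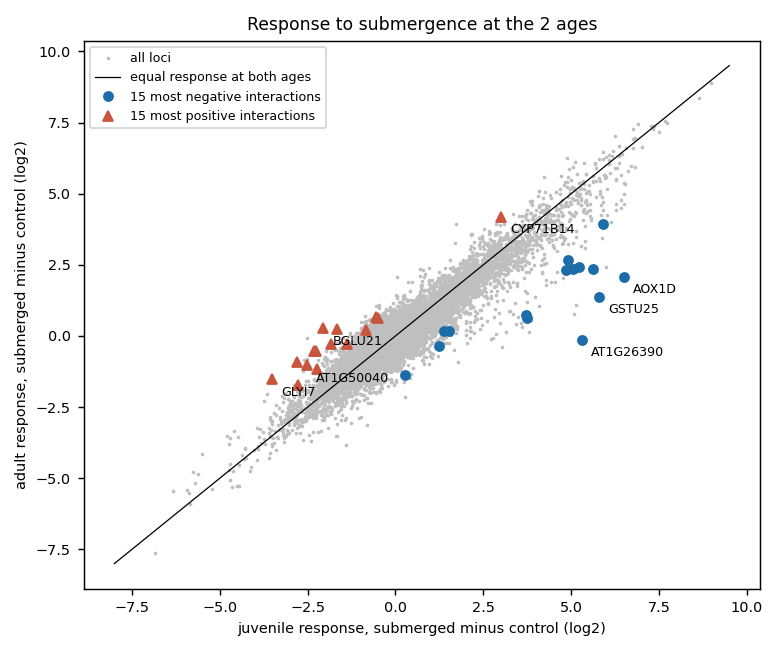
Response to submergence (submerged minus dark control, log2) in juvenile shoots (x axis) and adult shoots (y axis) for all 27826 loci in grey, with the 15 most negative and 15 most positive named interactions as circles and triangles and equal responses on the line. The named negative loci lie mostly at high juvenile and lower adult responses (AOX1D at 6.51 and 2.07), and most positive ones at juvenile falls that are smaller in adult shoots (GLYI7 at -3.50 and -1.53).

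Loci with the strongest negative interactions were genes that submergence raised in juvenile shoots far more than in adult ones. AT1G26390, which carries no name in RefSeq, read 5.66 and 5.45 in juvenile controls, 11.26 and 10.44 in submerged juvenile shoots, 7.21 and 7.90 in adult controls and 7.40 and 7.45 in submerged adult shoots. It rose by 5.30 in juvenile shoots (39.3-fold, limma adjusted p 3.7e-05), whereas its adult difference was -0.13 (adjusted p 0.80) and the adult arrays of the 2 treatments overlapped. The interaction was -5.43 with a standard error of 0.44, and the fit with trend and robust prior gave an adjusted p of 0.00146. Leaving out any 1 array kept it between -5.83 and -5.02.

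AOX1D encodes an alternative oxidase, a mitochondrial enzyme that passes electrons to oxygen past the cytochrome pathway. Its values were 3.86 and 3.72 in juvenile controls, 10.71 and 9.88 in submerged juvenile, 4.39 and 5.29 in adult controls and 6.57 and 7.26 in submerged adult shoots. Submerged arrays lay above controls at each age, and both submerged juvenile arrays lay above both submerged adult ones. AOX1D rose by 6.51 in juvenile (90.9-fold) and 2.07 in adult shoots (4.21-fold), with an interaction of -4.43 (standard error 0.55, adjusted p 0.190, and 0.0262 with trend and robust prior). AOX1A, its better-known relative, was chosen for mention after its values were seen: it rose by 5.05 and 3.28 and had an interaction of -1.77 (adjusted p 0.61).

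GSTU25 is a tau-class glutathione transferase, an enzyme family that joins glutathione to reactive compounds. It read 3.04 and 2.51 in juvenile controls, 9.18 and 7.93 in submerged juvenile shoots, 3.32 and 3.07 in adult controls and 4.34 and 4.81 in submerged adult shoots. The controls of the 2 ages were close, and the submerged juvenile arrays stood above all others. The rises of 5.79 (55.2-fold) and 1.38 (2.60-fold) differed by -4.41 (standard error 0.57, adjusted p 0.0262 with trend and robust prior).

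SDR4, named short-chain dehydrogenase reductase 4 in RefSeq, read 3.41 and 3.08 in juvenile controls, 7.32 and 6.65 in submerged juvenile, 3.50 and 3.24 in adult controls and 4.11 and 3.88 in submerged adult shoots. Its juvenile rise of 3.74 was called (adjusted p 5.2e-05), and its adult difference of 0.62 was not (0.094). AATP1, an AAA-type ATPase, had responses of 3.73 (called) and 0.75 (adjusted p 0.055) and an interaction of -2.98. CYP71A13, a cytochrome P450 of camalexin synthesis, the main phytoalexin of Arabidopsis, read 2.52 and 3.23 in juvenile controls, 7.96 and 8.27 in submerged juvenile, 3.86 and 4.20 in adult controls and 6.45 and 6.42 in submerged adult shoots. Submergence raised it at each age, by 5.24 and 2.41, and the interaction was -2.83 (adjusted p 0.0377 with trend and robust prior). Loci without a RefSeq name behaved likewise. AT5G55150 had responses of 5.09 in juvenile and 0.78 in adult shoots, AT2G38240 of 3.81 and 0.15, AT2G21640 of 3.03 and -0.39, and AT3G10320 of 2.73 and -0.09. In these 4 loci the juvenile rise was called and the adult difference was not. AT2G04070 (5.63 and 2.36), AT2G36440 (4.86 and 2.33) and AT1G43910 (4.91 and 2.66) rose at both ages, and AT1G05060 (1.44 and 0.36) was called in juvenile shoots only, a difference of calls that is not itself a test.

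**Figure D2:**
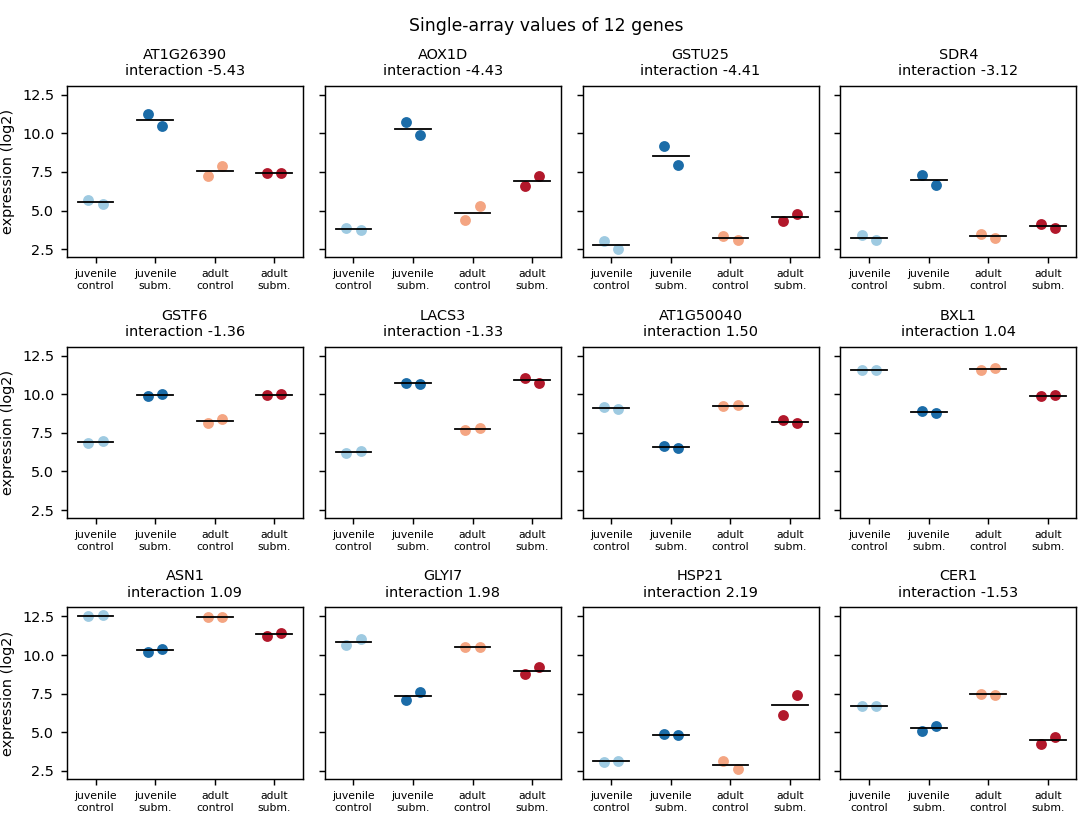
Log2 expression of 12 genes on single arrays (y axis), with 2 points for each of the 4 groups on the x axis and a bar at the group mean. AT1G26390, AOX1D, GSTU25 and SDR4 stand apart in submerged juvenile shoots, GSTF6 and LACS3 differ between ages in controls, AT1G50040, BXL1, ASN1 and GLYI7 are lowest in submerged juvenile shoots, HSP21 is highest in submerged adult shoots, and CER1 starts higher and ends lower in adult shoots.

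A second set of negative loci differed between the ages mainly in the dark controls. GSTF6, a phi-class glutathione transferase, read 6.84 and 6.96 in juvenile and 8.15 and 8.38 in adult controls, 9.91 and 10.01 in submerged juvenile and 9.93 and 10.00 in submerged adult shoots. Adult controls lay 1.37 above juvenile controls, while the submerged arrays of the 2 ages overlapped and differed by 0.01. GSTF6 thus rose by 3.06 in juvenile and 1.70 in adult shoots, with an interaction of -1.36 (standard error 0.18, adjusted p 0.0262 with trend and robust prior). GSTF7, its close paralog, gave the same interaction of -1.36 from rises of 4.23 and 2.87, and probes of such near-identical genes may share signal.

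LACS3, a long-chain acyl-CoA synthetase, read 6.16 and 6.33 in juvenile and 7.68 and 7.81 in adult controls, 10.75 and 10.69 in submerged juvenile and 11.05 and 10.74 in submerged adult shoots. Here too the controls of the 2 ages did not overlap and the submerged arrays did. It rose by 4.47 and 3.15, and the interaction was -1.33 (adjusted p 0.0377 with trend and robust prior). LHT1, an amino acid transporter of the plasma membrane, had an age difference of 0.85 in controls and 0.10 in submerged shoots and an interaction of -0.75. AT3G22600, named LTPG5 in RefSeq as a lipid transfer protein anchored to the membrane, rose by 5.06 and 2.36, with adult controls 2.08 above juvenile ones and submerged adult arrays 0.63 below juvenile ones. AT3G09405 (interaction -1.88), AT1G57630 (-1.85) and AT1G35710 (-1.42) completed this set, with adult controls higher by 1.99, 1.81 and 1.56.

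Of the 22 negative loci called with trend and robust prior, all 22 were called higher under water in juvenile shoots and 14 in adult shoots. The age difference was larger in submerged arrays for 14 and in controls for 8. Over the wider set of 358 loci with an interaction of -1 or below and an unadjusted p under 0.05, 238 were called up in juvenile shoots and 116 in adult shoots, 36 and 106 were called down, and the age difference was larger in submerged arrays for 211 (58.9%). The same arrays chose these loci, so the counts describe them and test nothing. The share with the larger age difference in submerged arrays was not counted over all loci. Of the remaining named loci at the negative end, CYP89A2 (a cytochrome P450) had an interaction of -1.58, UGT84B1 (a glucosyltransferase) of -1.33, AT1G03495 of -1.21 and GH9B13 (a family 9 glycosyl hydrolase) of -1.65. In GH9B13 the adult response was the larger, since it fell by 1.39 in adult shoots and had a juvenile difference of 0.26 (adjusted p 0.19).

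**Figure D3:**
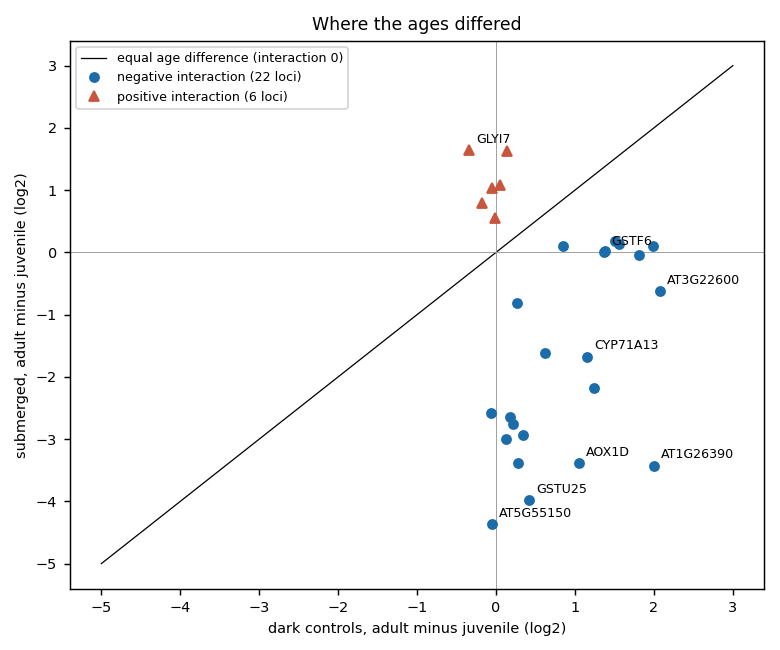
Age difference (adult minus juvenile, log2) in dark controls (x axis) and in submerged shoots (y axis) for the 28 loci called with trend and robust prior, with equal age differences on the line, 22 negative loci as circles and 6 positive as triangles. AT5G55150, GSTU25, AOX1D and AT1G26390 lie far below 0 on the y axis, GSTF6 and its neighbours lie near 0 there and above 1 on the x axis, and the 6 positive loci lie above 0 in submerged shoots and near 0 in controls.

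Gene lists were read in the same way, although most of the loci above, AOX1D among them, belong to none of the lists. The lists were chosen with earlier results of these data known, and some hold loci named above. Their counts and medians therefore describe them and test nothing. The list of mitochondrial retrograde signalling (15 genes) had a median interaction of -1.06, against 0.00 over all loci, with 12 negative and 3 positive. An unadjusted p under 0.05 was reached by 6 of 15 on the negative and 0 on the positive side, against 4.08% and 3.21% of all loci. Submergence raised 10 of the 15 in juvenile shoots (15.5% of all loci) and 9 in adult shoots (14.6%). The negative members included BCS1, an ATPase of the outer mitochondrial membrane, which rose by 4.51 and 3.09, and UGT74E2, a glucosyltransferase (interaction -1.52). AT5G09570 rose by 4.44 and 1.91 and AT2G32020 by 3.47 and 1.87. NAC017, the transcription factor from which the pathway starts, had an interaction of 0.10. The list mean was 8.84 and 7.91 on the submerged juvenile arrays, 7.25 and 7.60 on the submerged adult arrays and between 5.43 and 5.68 on the control arrays. Submerged juvenile arrays thus both lay above the adult ones, but differed from each other by more than the gap to the nearest adult array. Leaving out juvenile submerged replicate 1 gave a list median of -0.48, and leaving out replicate 2 gave -1.78.

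Glutathione transferases (39 genes of the tau and phi classes) had a median of -0.31, with 27 negative and 12 positive, and 11 of 39 reached an unadjusted p under 0.05 on the negative side and 0 on the positive (4.08% and 3.21% of all loci). In juvenile shoots 21 rose and 4 fell (15.5% and 18.8% of all loci), and in adult shoots 17 rose and 3 fell (14.6% and 18.9%). After centring, the list median was -0.15. Beside GSTU25, GSTF6 and GSTF7, GSTU8 had responses of 3.61 (called) and 0.31 (adjusted p 0.59) and an interaction of -3.31, and GSTF3 rose by 3.45 and 2.36 (interaction -1.08). The list median was -0.10 when adult submerged replicate 1 was left out, -0.17 when juvenile submerged replicate 1 was and -0.47 when juvenile submerged replicate 2 was. The other detoxification genes (9, mainly of cytochromes P450, glucosyltransferases and reductases, not all of them enzymes) were all negative. Their median was -0.65, with 1 of 9 at an unadjusted p under 0.05, against 4.08% of all loci on the negative side. That gene was CYP81D8, which rose by 4.17 and 3.10. The median rested on single arrays. It was -0.02 with juvenile submerged replicate 1 left out, -1.36 with juvenile submerged replicate 2 left out and -0.38 with adult submerged replicate 1 left out.

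Genes of the locus cluster from AT1G26380 to AT1G26420 (5 loci), which holds AT1G26390, had a median of -1.13, with 4 negative. On the negative side 3 of 5 reached an unadjusted p under 0.05 and on the positive 0, against 4.08% and 3.21% of all loci. AT1G26410 read 2.79 and 3.22 in juvenile controls, 8.99 and 8.81 in submerged juvenile, 4.74 and 4.79 in adult controls and 8.84 and 8.55 in submerged adult shoots. Unlike AT1G26390 it rose strongly at both ages, by 5.90 and 3.93, and its age difference lay in the controls. AT1G26380 rose by 4.85 and 3.72 and AT1G26420 by 4.69 and 3.78, while AT1G26400 stayed between 2.61 and 2.96 on all arrays. In the camalexin and indole list (10 genes) the median was -0.35, 8 were negative, and 2 reached an unadjusted p under 0.05, both negative (4.08% of all loci). These were CYP71A13 and PAD3, the P450 of the last camalexin step, which rose by 6.01 and 4.25. CYP79B2 and CYP79B3, which act at the start of the pathway, had interactions of -0.42 and 0.53. This median was -0.18 after centring and moved between -0.13 without adult submerged replicate 2 and -0.51 without adult submerged replicate 1, and that of the cluster between -0.79 and -1.47 without the same arrays.

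Salicylic acid is the hormone of defence against biotrophic pathogens. Its list (20 genes) had a median interaction of -0.28 (-0.12 after centring), with 15 negative. An unadjusted p under 0.05 was reached by 3 of 20 on the negative side and 0 on the positive (4.08% and 3.21% of all loci), and 19 genes were raised at each age (15.5% and 14.6% of all loci). PR1, a pathogenesis-related protein used as a marker of the hormone, read 3.09 and 3.40 in juvenile controls, 7.61 and 7.22 in submerged juvenile, 5.91 and 6.54 in adult controls and 8.64 and 8.33 in submerged adult shoots. Adult arrays lay above juvenile ones in both treatments, by 2.98 in controls and 1.07 in submerged shoots. PR1 rose by 4.16 and 2.26, with an interaction of -1.90 (standard error 0.36, adjusted p 0.302). PR5, another pathogenesis-related gene, had an interaction of -1.46, and ALD1, an enzyme of pipecolic acid synthesis, of -1.77, with a called rise of 2.24 in juvenile shoots and a difference of 0.48 (adjusted p 0.17) in adult shoots. The synthesis gene EDS16 (isochorismate synthase) and its transporter EDS5 had interactions of 0.06 and 0.09. In controls 16 of the 20 genes were higher in adult shoots (median 0.40, against 0.00 over all loci), and in submerged shoots 13 (median 0.16, against 0.02). Leaving out 1 array moved the list median to -0.03 (juvenile submerged replicate 1), -0.57 (juvenile submerged replicate 2) or -0.43 (juvenile control replicate 1).

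Jasmonate is the hormone of defence against insects and wounding. Its list (22 genes) was negative in 20, with a median of -0.19. On the negative side 2 of 22 reached an unadjusted p under 0.05 and on the positive 1, against 4.08% and 3.21% of all loci. Adult controls were higher in 20 of 22 genes (median 0.26), and in submerged shoots the median age difference was 0.02. Centred on array medians, the list median was -0.02, and it was -0.28 without juvenile control replicate 1. AT2G38240 was the most negative member, and JRG21, which fell in adult shoots against a juvenile difference of -0.05, had an interaction of -1.04. The JAZ repressors of the same hormone (10 genes) had a median of -0.23, with 8 negative. At an unadjusted p under 0.05 was 1 of 10, on the negative side (4.08% of all loci). This was JAZ5, which rose by 2.82 and 1.72. The JAZ median was -0.06 after centring and -0.11 without juvenile submerged replicate 1. Calmodulin-like genes (8) had a median of -0.24, with 1 negative gene at an unadjusted p under 0.05 (CML41, -0.63), against 4.08% of all loci. That median was -0.08 after centring and 0.00 and -0.45 without adult submerged replicates 2 and 1. It was -0.10 and -0.39 without adult control replicates 2 and 1. Among 67 WRKY factors, transcription factors of which many act in defence, the median was -0.06, and 5 were negative and 0 positive at an unadjusted p under 0.05, a share of 7.46% against 7.3% of all loci. WRKY50 rose by 2.71 and 1.41. The family's median was -0.02 without juvenile submerged replicate 1 or adult submerged replicate 2, -0.20 when juvenile submerged replicate 2 was left out and -0.16 when adult submerged replicate 1 was.

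**Figure D4:**
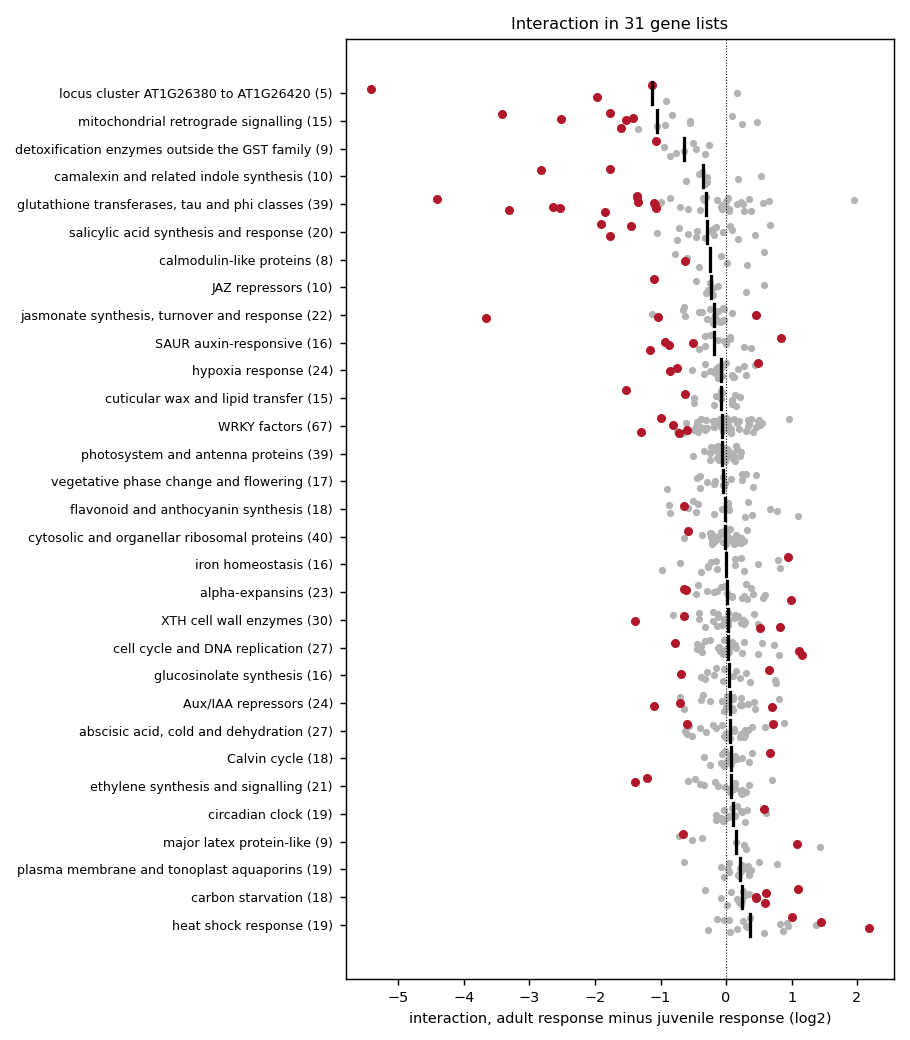
Interaction (adult response minus juvenile response, log2, x axis) of every measured member of 31 gene lists (y axis, number of genes in brackets), as grey points or, at an unadjusted p under 0.05, red points, with the list median as a bar. Medians run from -1.13 for the locus cluster and -1.06 for mitochondrial retrograde signalling to 0.25 for carbon starvation and 0.36 for heat shock, and most other lists sit close to 0.

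At the positive end, most of the best-resolved loci were genes that submergence lowered further in juvenile shoots than in adult ones. AT1G50040, without a RefSeq name, read 9.17 and 9.07 in juvenile controls, 6.66 and 6.53 in submerged juvenile, 9.24 and 9.27 in adult controls and 8.32 and 8.13 in submerged adult shoots. Submerged arrays lay below controls at each age, and lowest in juvenile shoots. It fell by 2.53 and 1.03, and the interaction was 1.50 (standard error 0.17, adjusted p 0.0262 with trend and robust prior).

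BXL1, a beta-xylosidase of the cell wall, read 11.60 and 11.59 in juvenile controls, 8.90 and 8.76 in submerged juvenile, 11.58 and 11.70 in adult controls and 9.85 and 9.96 in submerged adult shoots. Controls of the 2 ages overlapped and submerged arrays did not. It fell by 2.77 in juvenile and 1.73 in adult shoots, an interaction of 1.04 (standard error 0.17, adjusted p 0.0262 with trend and robust prior). ASN1, the asparagine synthetase known to be induced by darkness and low sugar, read 12.50 and 12.58 in juvenile controls, 10.17 and 10.42 in submerged juvenile, 12.49 and 12.48 in adult controls and 11.22 and 11.45 in submerged adult shoots. The controls were level within 0.10, and the juvenile arrays were the lower under water. Its falls of 2.24 and 1.15 gave an interaction of 1.09 (standard error 0.19, adjusted p 0.0262 with trend and robust prior).

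GLYI7, a member of the glyoxalase I family, read 10.68 and 11.03 in juvenile controls, 7.07 and 7.63 in submerged juvenile, 10.50 and 10.53 in adult controls and 8.77 and 9.20 in submerged adult shoots, and its interaction was 1.98 (standard error 0.33). AT4G33150, given in RefSeq as lysine-ketoglutarate reductase/saccharopine dehydrogenase, the entry enzyme of lysine breakdown, fell by 2.03 and 1.06 (interaction 0.97). SIP2, listed there as seed imbibition 2 or raffinose synthase 2, fell by 1.34 and 0.78 (interaction 0.55). These 6 loci were all called lower at both ages, and each had its larger age difference in submerged arrays. Among the wider 139 loci with an interaction of 1 or above and an unadjusted p under 0.05, 69 were called down in juvenile and 19 in adult shoots, 13 and 45 were called up, and the age difference was larger in submerged arrays for 66 (47.5%). Without the limit on size that share was 58.2% of 894 positive and 54.6% of 1136 negative loci, so the order of the directions depended on the limit.

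Others of the 15 named positive loci had their difference in the controls. BGLU21, a beta-glucosidase with near-identical relatives, read 6.34 and 5.81 in juvenile controls and between 3.90 and 4.45 on the other 6 arrays. It fell by 2.05 in juvenile shoots and had an adult difference of 0.27 (adjusted p 0.41), an interaction of 2.32. NRT2.3, of the high-affinity nitrate transporter family, read 6.57 and 6.65 in juvenile controls and between 3.73 and 4.51 elsewhere. It fell by 2.31 in juvenile shoots, against an adult difference of -0.54 (adjusted p 0.057), with an interaction of 1.77. KINESIN-12B, a motor of the dividing cell's phragmoplast, behaved alike: it fell by 1.39 in juvenile shoots from control values of 5.24 and 5.15, and read 3.93 on both adult control arrays. AT5G26260 (interaction 1.75), AT5G11080 (1.55), AT1G62000 (1.92) and AT5G37690 (1.04) were also highest in juvenile controls. CYP71B14, a cytochrome P450, was the 1 locus of the 15 that was raised at both ages and more in adult shoots, from 2.59 to 2.82 on the control arrays to 5.62 and 5.71 in submerged juvenile and 6.88 and 6.89 in submerged adult shoots (interaction 1.16). AT3G51540 fell by 2.80 and 0.92 (1.88), and AT3G20160 (1.24) and AT4G15700 (1.11) fell in juvenile and rose in adult shoots.

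Carbon starvation genes are normally induced when sugar runs out, as in prolonged darkness, and both control and submerged plants were in the dark. The list (18 genes) had a median interaction of 0.25, with 16 positive, and 5 of 18 reached an unadjusted p under 0.05 on the positive side and 0 on the negative, against 3.21% and 4.08% of all loci. Submergence lowered 12 of the 18 in juvenile shoots (18.8% of all loci) and 6 in adult shoots (18.9%), a difference of calls that is not itself a test. It raised 1 at each age (15.5% and 14.6% of all loci). Besides ASN1, the 5 were DIN4, BCAT-2 and ETFQO, which act in the breakdown of branched-chain amino acids, and BGAL4, a beta-galactosidase. DIN4 read between 10.89 and 11.03 on the control arrays, 9.81 and 9.48 in submerged juvenile and 10.25 and 10.11 in submerged adult shoots. It fell by 1.38 and 0.77 (interaction 0.61), ETFQO fell by 1.02 and 0.56 (0.46), and BCAT-2 fell by 0.81 in juvenile shoots against an adult difference of -0.35 (adjusted p 0.053). Not every member went this way: DIN11 rose by 3.08 and 3.42, and SEN1 (AT4G35770) had an interaction of 0.08. In submerged shoots 16 of 18 genes were higher in adults (median 0.24), and in controls 3 (median -0.06). The list median lay between 0.19 and 0.31 without any 1 array and was 0.41 after centring.

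Heat shock genes encode chaperones and their regulators, and 17 of the 19 listed rose at each age (15.5% and 14.6% of all loci). Their median interaction was 0.36, with 16 positive. At an unadjusted p under 0.05 were 3 of 19 positive and 0 negative, against 3.21% and 4.08% of all loci. HSP21, a small chaperone of the chloroplast, read 3.07 and 3.15 in juvenile controls, 4.88 and 4.80 in submerged juvenile, 3.13 and 2.60 in adult controls and 6.14 and 7.43 in submerged adult shoots. Both submerged adult arrays lay above all others, 1.29 apart from each other. HSP21 rose by 1.73 in juvenile and 3.92 in adult shoots, an interaction of 2.19 (standard error 0.55, adjusted p 0.452). HSP70 rose by 2.15 and 3.60 (interaction 1.45) and the heat stress factor HSFA2 by 1.41 and 2.41 (1.00). In submerged shoots 17 of 19 genes were higher in adults, with a median of 0.78. The list mean was 7.11 and 7.93 on the 2 submerged adult arrays, 7.01 and 6.66 on the submerged juvenile arrays and between 4.56 and 4.72 in controls. The list median was 0.04 without adult submerged replicate 2, 0.85 without adult submerged replicate 1 and 0.61 without juvenile submerged replicate 1, so its size rested on single arrays.

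**Figure D5:**
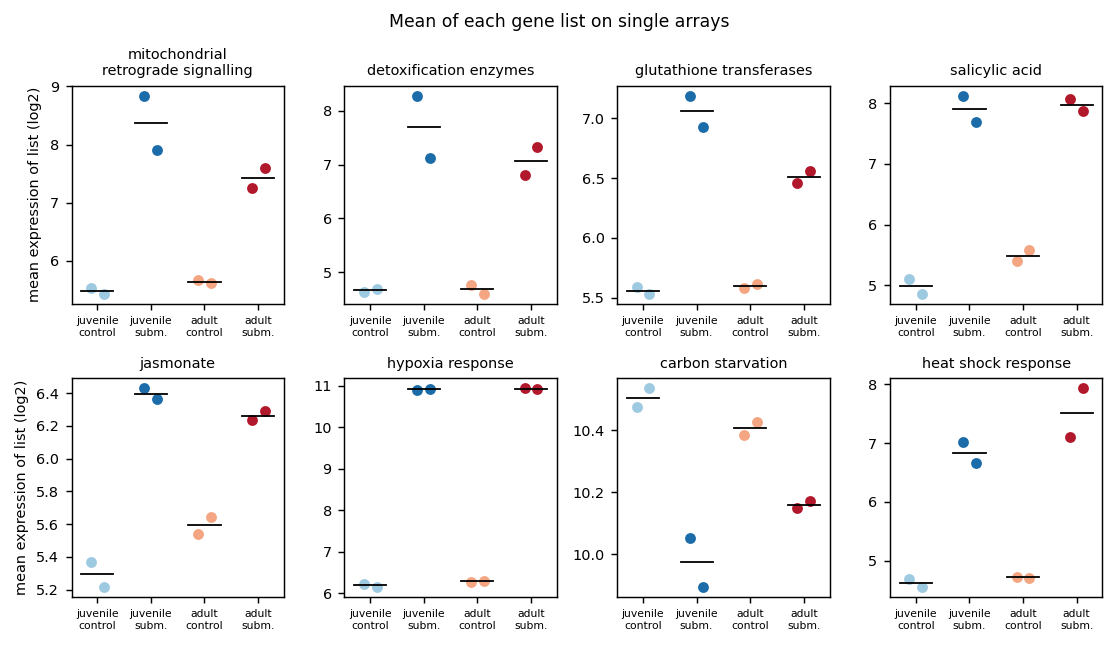
Mean log2 expression of 8 gene lists on single arrays (y axis, a different range in each panel), with 2 points per group on the x axis and a bar at the group mean. Mitochondrial retrograde and glutathione transferase means are highest in submerged juvenile shoots, detoxification means of the submerged ages overlap (8.28 and 7.12 against 6.81 and 7.33), heat shock is highest in submerged adult shoots and carbon starvation lowest in submerged juvenile shoots, while the hypoxia means of the 2 ages are close in each treatment.

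The core response to low oxygen had a median of 5.02 in juvenile and 4.83 in adult shoots. Of 24 hypoxia genes 22 rose at each age (15.5% and 14.6% of all loci in juvenile and adult shoots). The median interaction was -0.08 (0.09 after centring, so without a settled sign). At an unadjusted p under 0.05 were 2 negative and 1 positive, against 4.08% and 3.21% of all loci. ACO1 (AT2G19590), an ethylene-forming oxidase, rose by 5.46 and 4.60 (interaction -0.86), and AT5G15120, given in RefSeq as plant cysteine oxidase 1, an oxygen sensor of this pathway, rose by 6.41 and 5.66 (-0.75). Both reached overlapping levels under water (ACO1 at 10.56 and 10.81 in juvenile and 10.59 and 10.48 in adult shoots) from adult controls that were higher. ADH1, the alcohol dehydrogenase of fermentation, rose by 4.57 and 5.06 (0.48) from controls that were lower in adults.

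Ethylene genes (21) had a median of 0.07, with 2 negative and 0 positive at an unadjusted p under 0.05, against 4.08% and 3.21% of all loci. Both were ACC synthases, which make the ethylene precursor. ACS2 rose by 2.22 and 1.01 (interaction -1.20), and ACS11 fell by 1.95 in adult shoots against a juvenile difference of -0.56 (adjusted p 0.10; interaction -1.39). The wax and lipid transfer list (15) had a median of -0.07, with 2 negative and 0 positive genes at that threshold, beside the same shares of all loci. CER1, which acts in the synthesis of wax alkanes, read 6.70 and 6.67 in juvenile controls, 5.08 and 5.41 in submerged juvenile, 7.48 and 7.41 in adult controls and 4.27 and 4.69 in submerged adult shoots. The order of the ages thus reversed between treatments. CER1 fell by 1.44 and 2.97 (interaction -1.53, standard error 0.25), and CER4, of wax alcohol synthesis, fell by 0.86 and 1.48 (-0.62). Without adult submerged replicate 2 the list median was 0.10, and without replicate 1 it was -0.24.

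Growth genes were mixed. SAUR genes, which respond quickly to auxin, had a median of -0.18 over 16 (-0.02 after centring). It was -0.05, -0.09 and -0.11 without juvenile control replicate 2, juvenile submerged replicate 1 and adult submerged replicate 2. With an unadjusted p under 0.05 were 4 negative and 1 positive, against 4.08% and 3.21% of all loci. SAUR9 rose by 1.81 and 0.88, whereas SAUR75 fell by 1.60 in adult shoots against a juvenile difference of -0.44. Cell cycle genes (27) had a median of 0.03, with 1 negative and 2 positive. CYCD3;1, a cyclin of cell cycle entry, fell by 0.36 and 1.14 (-0.78), opposite in direction to KINESIN-12B and CDC20.1 (1.16). Of 30 XTH cell wall enzymes 2 were negative and 2 positive (median 0.03), of 23 measured alpha-expansins of the 24 listed 2 and 1 (0.01), and of 24 Aux/IAA repressors 2 and 1 (0.06). The same shares of all loci, 4.08% and 3.21%, stand beside the counts of these lists and of the cell cycle list.

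Of 39 photosystem and antenna genes 30 fell at each age (18.8% and 18.9% of all loci in juvenile and adult shoots). For the interaction 0 reached an unadjusted p under 0.05, against 7.3% of all loci (median -0.05, and between -0.10 and 0.00 with 1 array left out). In the Calvin cycle list (18) 5 fell in juvenile shoots (18.8% of all loci), and 4 fell and 1 rose in adult shoots (18.9% and 14.6%). Its median interaction was 0.07, and RBCS2B alone reached an unadjusted p under 0.05, falling by 1.32 and 0.65 (interaction 0.66). Aquaporins (19) were positive in 16, with a median of 0.22 that stayed between 0.18 and 0.26 without any 1 array, yet 0 reached an unadjusted p under 0.05. Vegetative phase change and flowering genes (17) had a median of -0.05 and likewise 0. In controls 10 of these 17 were higher in adult shoots, with a median age difference of 0.05. Ribosomal protein genes of cytosol and organelles (40) had a median of -0.01 and 1 negative (RPL10B, -0.57).

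In the remaining lists medians were near that of all loci. The counts given are at an unadjusted p under 0.05, where 3.21% of all loci were positive and 4.08% negative. Circadian clock genes (19) had 0.11, with 1 positive (PRR9, which fell by 0.83 in juvenile shoots, 0.59). That median was 0.27 after centring, 0.02 without adult submerged replicate 2, 0.04 without juvenile submerged replicate 2, 0.07 without juvenile control replicate 2 and 0.06 without adult control replicate 1. The median was, for glucosinolate genes (16), 0.04 with 1 in each direction (CYP83B1 at -0.68 and MYB34 at 0.65), and for abscisic acid, cold and dehydration genes (27), 0.07 with 1 in each direction. In the last, COR47, a dehydrin, fell by 2.99 and 2.28 (0.71) and COR15B by 4.13 and 4.73 (-0.60). Iron genes (16) had 0.00 with 1 positive, the ferritin FER1, which fell by 4.72 and 3.78 (0.94). Flavonoid genes (18) had -0.02 with 1 negative (DFR, -0.65). The 9 major latex protein-like genes had 0.16 (-0.33 without juvenile control replicate 1) with MLP34 positive (1.08) and MLP423 negative (-0.66). After centring, medians of the hypoxia, wax, WRKY, photosystem, phase change, flavonoid, ribosomal and iron lists turned positive. With 1 array left out, the medians of the hypoxia, wax, phase change, flavonoid, ribosomal, iron, expansin, XTH, cell cycle, glucosinolate, Aux/IAA, abscisic acid, Calvin cycle, ethylene and major latex protein-like lists changed sign for at least 1 array, so none of these is given a direction.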

How the data were processed

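Total RNA from shoots was hybridised to Affymetrix arrays, 1 per sample. The authors deposited log2 expression values per locus (unit judged from the range of the values), and RMA and limma are named, without versions or roles, per the submitters' processing notes. The array model, genome build and probe assignment are not given in the sources used here. Symbols came from RefSeq (TAIR10.1), which matched 27241 of 27826 loci (97.9%), for names only. No coordinates are printed, since the files' build is unknown.

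With limma 3.58.1 in R 4.3.3 (lmFit, contrasts.fit, eBayes), the 4 group means were estimated from the 8 arrays jointly, leaving 4 residual degrees of freedom plus 2.99 from the prior, and two-sided p-values were adjusted by Benjamini-Hochberg over all loci. The number of arrays limits the precision: with 2 arrays against 2, the smallest p of an exact permutation test is 0.333. The procedure was also run on simulated arrays with independent noise and effects added to submerged adult arrays only. That run checks the code and not how well the model describes these arrays. Replicate numbers were not used as pairs in the main fit.

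The comparison, the 31 lists and the 4 marker lists were chosen with earlier results of these data known. Named loci were the 15 most negative and 15 most positive moderated t values of the interaction among loci of size 1 or more, all loci called with trend and robust prior, and up to 4 members per list by size of t; other list members are named for their values. A planned root marker is not reported here. Genes of other families that matched a list's symbol pattern were removed by their RefSeq names after the values were available. Alternatives were quantile normalization, median centring, removal of the dimmest 50% of loci, trend and robust prior, array weights, thresholds of 0.01 and 0.1, a replicate block and omission of each array. Figures were drawn with matplotlib 3.10.9. A planned description of promoter motifs was not made, as no sequences were used here.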

Additional observations from a re-analysis of the deposited data

Results flagged for a closer look

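Some named genes had both submerged arrays above both controls at 1 age and both below at the other. None of these interactions passed an adjusted p under 0.05 in limma, and AT2G21640 alone was called with trend and robust prior. Over all loci, 261 (0.938%) lay higher under water in juvenile and lower in adult shoots with separated arrays, and 448 (1.61%) the reverse; 9 and 4 of these were called at both ages.

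Higher in juvenile and lower in adult shoots were AT2G21640 (interaction -3.42), CYP89A2 (-1.58), GH9B13 (-1.65), VSP1 (-1.12), a vegetative storage protein of the jasmonate list, WRKY61 (-0.99) and DFR (-0.65), a reductase of anthocyanin synthesis. CYP89A2 read 5.07 and 5.04 in juvenile controls, 6.45 and 6.14 in submerged juvenile, 5.75 and 5.73 in adult controls and 5.37 and 5.43 in submerged adult shoots. GH9B13 was at 5.99 and 5.66 in submerged adult shoots and between 6.89 and 7.26 on the other arrays. VSP1, WRKY61 and DFR were dim, at no more than 4.55 on any array, and neither of their responses was called.

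Lower in juvenile and higher in adult shoots were BGLU21 (2.32), AT3G20160 (1.24), AT4G15700 (1.11) and AT5G37690 (1.04). Of these, AT3G20160 (-0.56 and 0.68) and AT4G15700 (-0.49 and 0.61) were called at both ages, while BGLU21 and AT5G37690 were called in juvenile shoots.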

How the results depend on the processing

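The interaction called 0 loci at an adjusted p under 0.05, with 2030 at an unadjusted p under 0.05. It called 28 with trend and robust prior and between 0 and 23 when 1 array was left out. The 23 came without juvenile submerged replicate 2, were all negative, and shared 8 loci with the 28; the cause was not tested. Quantile normalization, median centring, array weights, removal of dim loci, thresholds of 0.01 and 0.1 and the replicate block each gave 0. The unadjusted count was 510 at 0.01, 3669 at 0.1 and 1070 of 13913 loci without the dimmest 50%, and lay between 1428 and 2566 with 1 array left out. Its split of 894 positive and 1136 negative became 2278 and 549 after centring and 995 and 988 after quantile normalization. Calls in juvenile shoots fell from 9525 to 6105 at 0.01 (6574 to 9482 with 1 array left out) and in adult shoots from 9346 to 5927 (6587 to 9580). Same-numbered arrays correlated between -0.113 and 0.049 across loci in their deviations from group means. No shared replicate effect was thus visible, though this cannot show whether same-numbered samples were grown or processed together. The replicate block gave 0 interaction calls, 1940 loci at an unadjusted p under 0.05, 8916 juvenile and 8839 adult calls. Signal over background was not used here, so dim loci cannot be told from undetected ones. Of the values of single genes and list medians under alternatives, 2440 were counted as unchanged, and 110 list medians moved beyond the spread between replicates. A list median within that spread counted as unchanged even where its sign changed. A gene counted as unchanged where it kept its sign and was not called. No named gene changed the sign of its interaction under any alternative.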
